A study of Mus musculus with 14 samples.

Results

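miR-143 and miR-145 were followed through mouse lung development, from the embryonic lung to the adult organ. They were taken by assay number, 2249 for miR-143 and 2278 for miR-145, and are 2 of the 516 TaqMan microRNA assays with deposited values. The series asked which microRNAs (miRNAs) change as the lung forms and matures. Lungs were dissected whole from mice of the outbred ICR strain at embryonic day 12 (E12), E14, E16 and E18, at postnatal day 2 (P2) and P10, and in the adult, with the day of the plug counted as day 0. Each of the 7 time points had 2 samples, 14 in all, and the labels give female for every sample. The methods mention females only as the mice bred for timed pregnancies and describe no sexing of embryos or pups. No animal was treated or carried an engineered allele, and the methods state that RNA came from pooled whole lungs. Whether both samples at an age were drawn from different pools is not given in the labels, so p-values cover only the sample-to-sample spread, part or all of which may be technical. In pooled whole lung, fewer cells of a type and less RNA per cell cannot be told apart.

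miR-143 and miR-145 are processed from neighbouring hairpins that are transcribed together as a cluster. Both are abundant in smooth muscle, where serum response factor and its coactivator myocardin switch the cluster on, and both favour the contractile over the proliferative state of the muscle cell. Known targets of miR-145 include Klf4 and Klf5, transcription factors linked to the proliferative state, and the ETS factor Elk1 is a known target of miR-143. In the lung, smooth muscle wraps the airways and the vessels, and contractile myofibroblasts appear in the walls as alveoli form. Nothing measured here separates these cells, so the link to smooth muscle is background and not a result.

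The RefSeq gene table of GRCm38.p6 places Mir143 and Mir145a side by side on the same chromosome with 0 listed genes between them, both within Carmn, a long noncoding RNA gene named for cardiac mesoderm. It also lists Mir145b, and whether the miR-145 assay reads its product was not tested. Both members sat on card A of the 2 array cards, in 1 well each, so each value rests on 1 PCR well per sample. miR-145*, the other strand of the miR-145 hairpin, had 2 wells on card B, but the deposited rows carry assay numbers and the card layouts carry names, and no table used here pairs them, so its row was not identified. For the same reason the other miRNAs linked to smooth muscle, and the markers of endothelium, epithelium, striated muscle and blood that would check the tissue, were not matched to rows and are not analysed here.

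Levels were deposited as ΔCT, the PCR cycle at which an assay crossed its threshold minus that of the small nuclear RNA U6. A smaller ΔCT means more of the miRNA, and 1 cycle is 1 unit on the log2 scale if each cycle doubles the product. Between 272 and 335 assays were measured per sample, and both members were measured in all 14 samples. The average ΔCT over the 219 assays with a value in every sample, called the global mean here, lay between 9.94 and 11.6, with the lowest value in E18 replicate 1. Samples thus differed in their overall ΔCT, and each result is given against U6 and against the global mean.

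miR-145 was higher in the adult lung than at E12 under both scalings, 5.54-fold against U6 and 4.12-fold against the global mean. Its ΔCT against U6 was 7.03 and 6.14 in E12 lungs, 6.24 and 6.15 in E14 lungs, 6.09 and 5.23 in E16 lungs, 4.10 and 5.13 in E18 lungs, 6.19 and 5.27 in P2 lungs, 4.08 and 4.05 in P10 lungs, and 4.12 and 4.12 in adult lungs. The P10 and adult samples were all higher in level than every sample of E12, E14, E16 and P2, and E18 replicate 1 lay among them. The means were 6.59 ± 0.63 in E12 lungs, 6.20 ± 0.07 in E14 lungs, 5.66 ± 0.61 in E16 lungs, 4.61 ± 0.73 in E18 lungs, 5.73 ± 0.65 in P2 lungs, 4.07 ± 0.02 in P10 lungs and 4.12 ± 0.003 in adult lungs (SD, n = 2 each). As these readings lay on the whole-cycle steps described below, an SD near 0 means the same step in both samples and not high precision. The miR-145 level as a multiple of that in E12 lungs was 1.31-fold in E14, 1.90-fold in E16, 3.93-fold in E18, 1.81-fold in P2, 5.74-fold in P10 and 5.54-fold in adult lungs. In the order of mean level, P10 came first, then the adult, E18, E16, P2, E14 and E12. Neighbours in that order overlapped in their samples except P10 with the adult and E18 with E16, and in both of these pairs the nearest samples were within 0.1 cycle of each other.

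The change of miR-145 over the course passed the test across all assays. The highest and lowest means of miR-145 were 2.52 cycles apart, and limma's F test over the 7 time points gave an adjusted p = 0.00858 after Benjamini-Hochberg adjustment over 350 assays. The same test called 56.9% of these assays, so a call by itself did not set miR-145 apart. miR-145 was 2.47 log2 units higher in the adult than at E12 (SE 0.50, adjusted p = 0.00289), where 24.6% of assays were called higher. It was also called higher at E18 than at E12, by 1.97 (SE 0.50, adjusted p = 0.0172), where 30% of assays were called higher. That call was lost without E12 replicate 1 (1.53, adjusted p = 0.0977) and without E18 replicate 1 (1.46, adjusted p = 0.128). Between the adult and E18 the difference was 0.50 (adjusted p = 0.488), a comparison in which 5.43% of assays were called higher.

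miR-143 varied over a narrower range. Its ΔCT against U6 was 9.01 and 9.15 in E12 lungs, 8.22 and 9.13 in E14 lungs, 8.07 and 8.23 in E16 lungs, 7.06 and 8.11 in E18 lungs, 9.19 and 8.27 in P2 lungs, 8.08 and 8.08 in P10 lungs, and 7.12 and 8.16 in adult lungs. The highest levels were those of E18 replicate 1 and adult replicate 1, and the other sample of each of these time points lay about 1 cycle lower in level. The means were 9.08 ± 0.10 in E12 lungs, 8.68 ± 0.65 in E14 lungs, 8.15 ± 0.11 in E16 lungs, 7.58 ± 0.74 in E18 lungs, 8.73 ± 0.65 in P2 lungs, 8.08 ± 0.006 in P10 lungs and 7.64 ± 0.74 in adult lungs (SD, n = 2 each). From the highest mean level to the lowest the order was E18, adult, P10, E16, E14, P2 and E12, and every pair of neighbours overlapped in its samples.

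**Figure D1:**
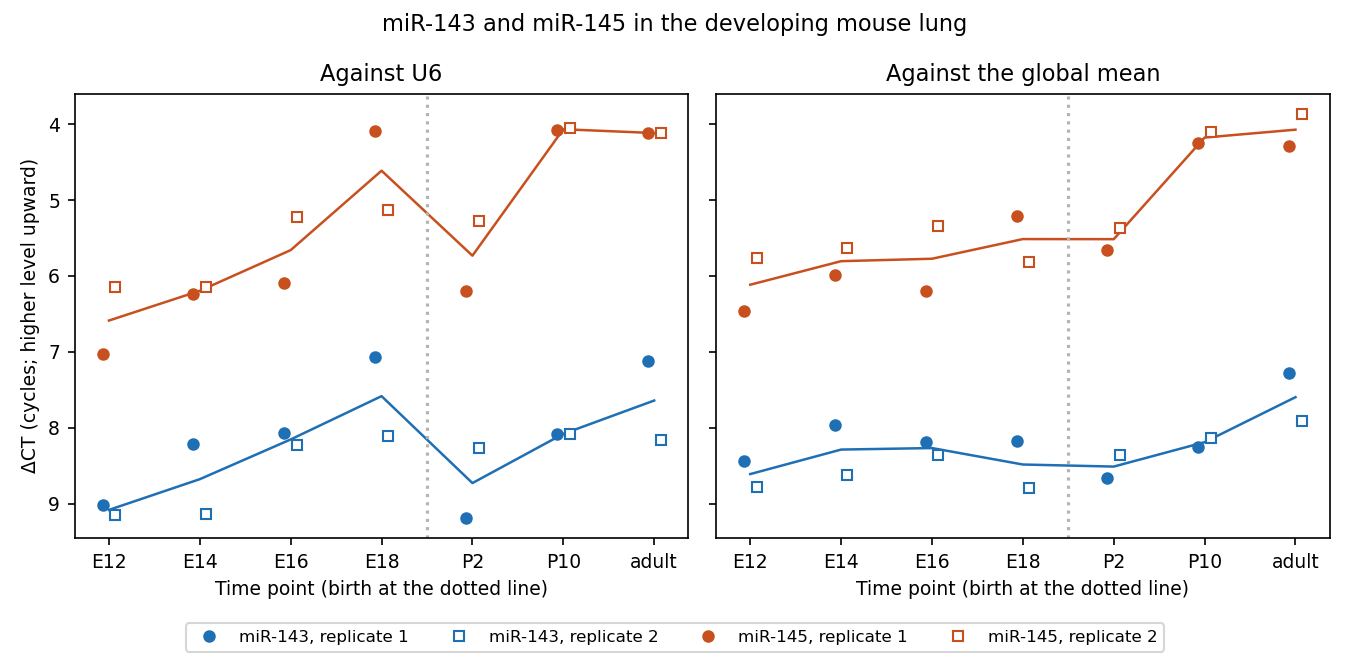
ΔCT in cycles (vertical axis, turned so that a higher level is upward) of miR-143 (blue) and miR-145 (orange) at the 7 time points, against U6 (left) and against the global mean (right). Each point is 1 sample, the lines join the means of 2 samples, and the dotted line marks birth. Against U6, miR-145 was at 4.61 at E18 and 5.73 at P2, whereas against the global mean these were 5.51 and 5.52.

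Over the 7 time points the miR-143 means spanned 1.499 cycles and limma's F test did not call them different (adjusted p = 0.159). miR-143 was 1.44 higher on the log2 scale in the adult than at E12 (SE 0.53, 2.71-fold, adjusted p = 0.0489), which narrowly passed the threshold of 0.05. Both adult samples were higher in level than both E12 samples. The call rested on single samples and settings: it held in 5 of the 14 fits that left out 1 sample, and without adult replicate 1 the difference was 0.92 (adjusted p = 0.245). The call was also lost with the replicate number as a block (adjusted p = 0.0525). At E18 miR-143 was 1.499 above E12 (SE 0.53, adjusted p = 0.0587), and between the adult and E18 the difference was -0.06 (adjusted p = 0.971).

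Scaling to the global mean kept the higher level of miR-145 in the adult than at E12, at a smaller size. It also changed whether E18 minus E12 and adult minus E18 were called. On that scale the miR-145 ΔCT was 6.46 and 5.77 in E12 lungs, 5.98 and 5.63 in E14 lungs, 6.20 and 5.35 in E16 lungs, 5.21 and 5.82 in E18 lungs, 5.66 and 5.37 in P2 lungs, 4.24 and 4.11 in P10 lungs, and 4.28 and 3.86 in adult lungs. All P10 and adult samples were higher in level than all samples of the 5 earlier time points, among which neighbours in the order of mean level overlapped. As a multiple of the E12 mean, the level of miR-145 was 1.24-fold in E14, 1.27-fold in E16, 1.52-fold in E18, 1.52-fold in P2, 3.83-fold in P10 and 4.12-fold in adult lungs. limma's F test again called miR-145 (range 2.04 cycles, adjusted p = 0.00747), with 58.3% of assays called. The adult stood 2.04 above E12 (SE 0.39, adjusted p = 0.00199, 21.7% of assays called higher) and 1.44 above E18 (SE 0.39, 2.72-fold, adjusted p = 0.0180, 15.7% called higher). The E18 lungs stood 0.60 above E12 and were not called (adjusted p = 0.287, 11.4% called higher).

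miR-143 scaled to the global mean had a ΔCT of 8.44 and 8.78 in E12 lungs, 7.96 and 8.62 in E14 lungs, 8.18 and 8.35 in E16 lungs, 8.18 and 8.79 in E18 lungs, 8.66 and 8.36 in P2 lungs, 8.25 and 8.13 in P10 lungs, and 7.28 and 7.91 in adult lungs. Both adult samples were higher in level than all others, but adult replicate 2 only narrowly so, at 7.91 against 7.96 in E14 replicate 1. The adult mean was 1.01 above that of E12 (SE 0.35, 2.02-fold, adjusted p = 0.0367) and 0.89 above that of E18 (SE 0.35, adjusted p = 0.0786), and the F test over the course did not call miR-143 (adjusted p = 0.236). The E18 mean was 0.13 above that of E12 (adjusted p = 0.824).

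The scalings gave different sizes of change at several ages. The median change of all 350 assays between E16 and E14 was 0.52 against U6 and 0.02 against the global mean, and that of miR-143 was 0.52 and 0.02 as well. Against U6, the P2 minus E18 difference in level was -1.15 for miR-143 (adjusted p = 0.138) and -1.12 for miR-145 (adjusted p = 0.136), and neither was called, while 23.1% of assays were called lower. The median change of all 350 assays between P2 and E18 was -1.13. Against the global mean the members' changes were -0.03 and -0.001, and 2% of assays were called lower. The median change between E18 and E12 was 0.99 against U6 and -0.38 against the global mean. Whether U6 or the miRNAs as a whole changed was not tested.

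Step by step, 0 of 12 changes between successive time points (6 steps of each member) were called against U6, and 1 had an unadjusted p below 0.05 in limma. The same counts, 0 and 1 of 12, came from the fit against the global mean. The single step was that of miR-145 between P10 and P2. The P10 minus P2 difference was 1.67 (SE 0.50, adjusted p = 0.0701; 3.71% of assays called higher) against U6 and 1.34 (SE 0.39, adjusted p = 0.0611; 2.29% called higher) against the global mean. Both P10 samples were higher in level than both P2 samples on both scales. This step passed in only 4 of 24 alternative settings. Among these were the fit of the 219 completely measured assays alone (adjusted p = 0.0155) and that with blanks left as missing values (adjusted p = 0.0421). Without P2 replicate 1 the difference against U6 was 1.21. In the rest of the steps few assays were called higher: 0.857% between E14 and E12, 0.857% between E16 and E14, 4.86% between E18 and E16 and 3.71% between the adult and P10 against U6, and 1.43%, 1.43%, 2% and 5.14% against the global mean.

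**Figure D2:**
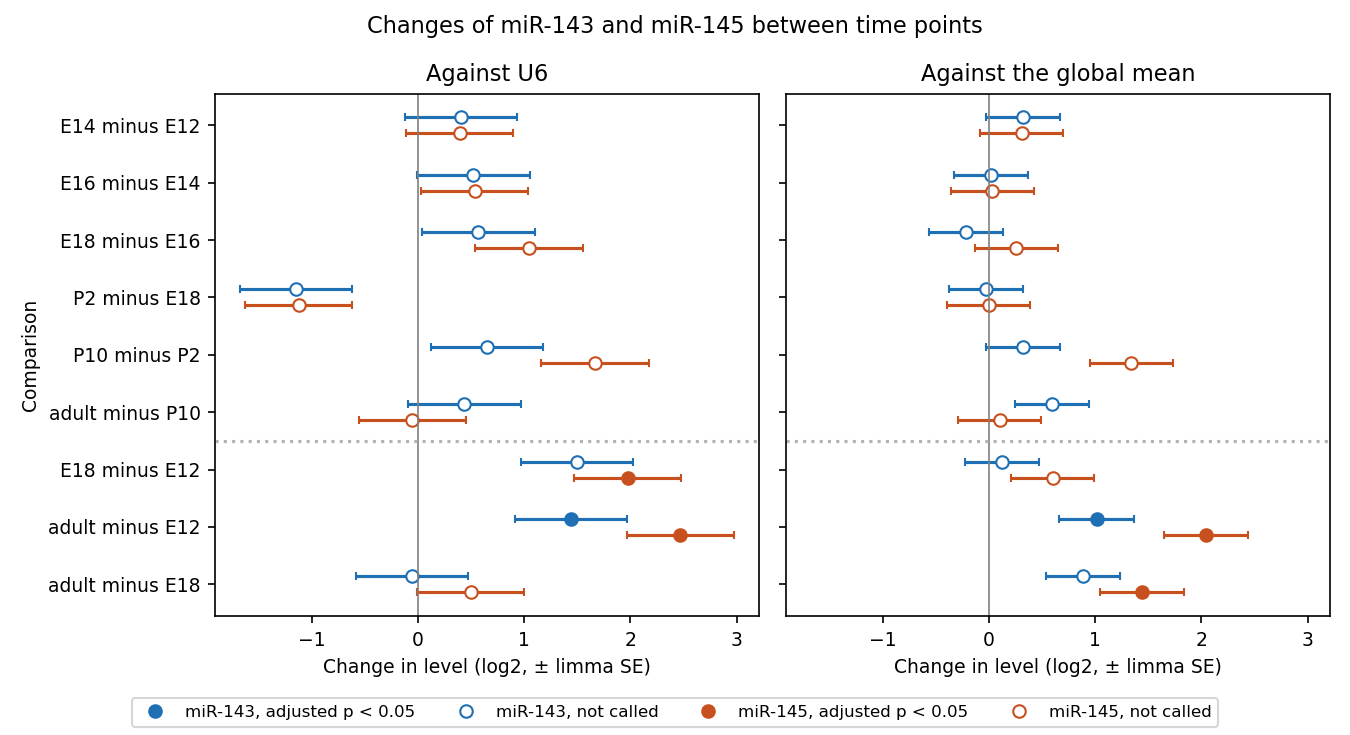
Change in level on the log2 scale (horizontal axis, later minus earlier time point, bars are limma's SE) of miR-143 (blue) and miR-145 (orange) for the 6 successive steps and, below the dotted line, 3 longer comparisons. Filled points have an adjusted p below 0.05. The adult minus E12 change of miR-145 is filled on both scales, at 2.47 against U6 and 2.04 against the global mean, and no successive step is filled.

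The days on which the run files of card A were last saved differed between samples, and in 5 of the 6 steps some samples before and after the step shared such a day. Within shared days the miR-145 difference in level was 0.34 for E14 minus E12, 1.56 for E18 minus E16, -1.06 for P2 minus E18, 1.19 for P10 minus P2 and -0.07 for adult minus P10. The miR-143 difference was 0.86 for E14 minus E12, 1.09 for E18 minus E16, -1.08 for P2 minus E18, 0.18 for P10 minus P2 and 0.96 for adult minus P10. Over all samples miR-143 gave 0.40, 0.57, -1.15, 0.65 and 0.44 for the same 5 steps, so 4 of its values moved by more than 1.5 times within shared days. Over all samples miR-145 gave 0.39, 1.05, -1.12, 1.67 and -0.05, and 0 of its values moved by more than 1.5 times. Its E18 minus E16 value, 1.05 against 1.56, came close to that limit. The values within shared days rest on 2 or 3 samples each and have no test, and E16 and E14 shared no day.

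The 2 miRNAs can be set against each other within a sample, where U6 cancels. The level of miR-145 minus that of miR-143 was 1.98 and 3.01 in E12 lungs, 1.98 and 2.99 in E14 lungs, 1.98 and 3.01 in E16 lungs, 2.97 and 2.97 in E18 lungs, 2.996 and 2.996 in P2 lungs, 4.004 and 4.02 in P10 lungs, and 3.002 and 4.05 in adult lungs. The lowest values were those of replicate 1 at E12, E14 and E16, and the highest those of both P10 samples and adult replicate 2. The adult difference averaged 3.52 against 2.49 at E12, a change of 1.03. An exact permutation test of the F statistic over all 135135 ways to divide the 14 samples into pairs gave F = 2.29 and p = 0.220, and the pooled SD within time points was 0.55 cycles. For the adult against E12 alone the exact two-sided permutation p was 0.667, in a design whose smallest possible p is 0.333. An unequal change of miR-143 and miR-145 was therefore not shown, and equal change was not shown either.

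**Figure D3:**
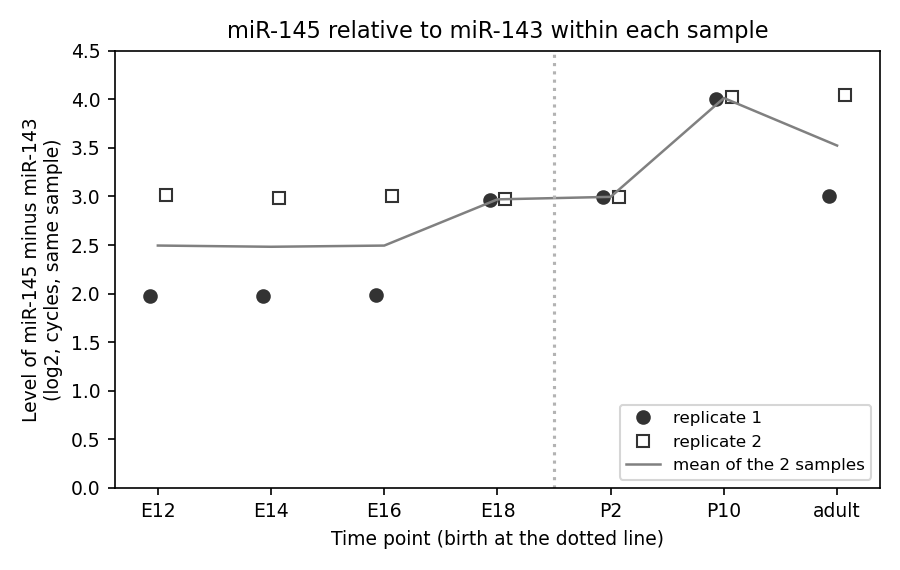
Level of miR-145 minus that of miR-143 in the same sample (vertical axis, log2, cycles) at the 7 time points. Each point is 1 sample and the line joins the means of 2 samples. The points lie near 2, 3 or 4 cycles, at 4.004 and 4.02 at P10.

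The difference took whole-cycle values. It lay near 2 cycles in 3 samples, near 3 in 8 and near 4 in 3, and within 0.05 cycles of a whole number in 14 of 14. The same grid ran through the table: between 70.7% and 89.1% of the measured assays of a sample had a ΔCT within 0.1 cycle of miR-145's after removing whole cycles. A gap of about 1 cycle between the samples of a time point, as in miR-143 at E18 and in the adult, is thus 1 step of this grid, and differences smaller than a cycle between single samples were not resolved. The SDs, limma's SEs and the p-values of both members rest on readings with these steps.

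By ΔCT, miR-145 ranked between 4 and 20 among the measured assays of a sample, counted from the highest level, and miR-143 between 34 and 60. The ranks of miR-145 were 20 and 12 in E12 lungs, 5 and 5 in P10 lungs, and 7 and 4 in adult lungs. Assays can differ in efficiency, so these ranks order readings and not molecules. U6 was on both cards, and whether each card was set against its own U6 value was not tested. miR-143 ranked 36 and 47 in the adult and 39 and 56 at E12, which overlap.

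Against U6, the adult minus E12 change of miR-145 was exceeded by 52 of all 350 assays and that of miR-143 by 98. Against the global mean these counts were 53 and 99. The median change against U6 was 0 over the 350 assays and 0.45 over the 219 measured in every sample. Against the global mean these medians were -0.27 and 0.02. For P10 minus P2 against U6, 26 assays had a higher change than miR-145 and 124 a higher change than miR-143. The counts against the global mean were 27 and 124. Counts and medians over the 350 include assays whose blanks were filled with the highest ΔCT. The methods kept a miRNA that had an adjusted p under 0.05, a lowest mean ΔCT under 10 and a range over 2.2 cycles. Applied with limma's F test, these criteria kept miR-145 against U6 (range 2.52), along with 22.9% of all assays, but not against the global mean (range 2.04), where 19.7% were kept. miR-143 did not meet them on either scale.

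**Figure D4:**
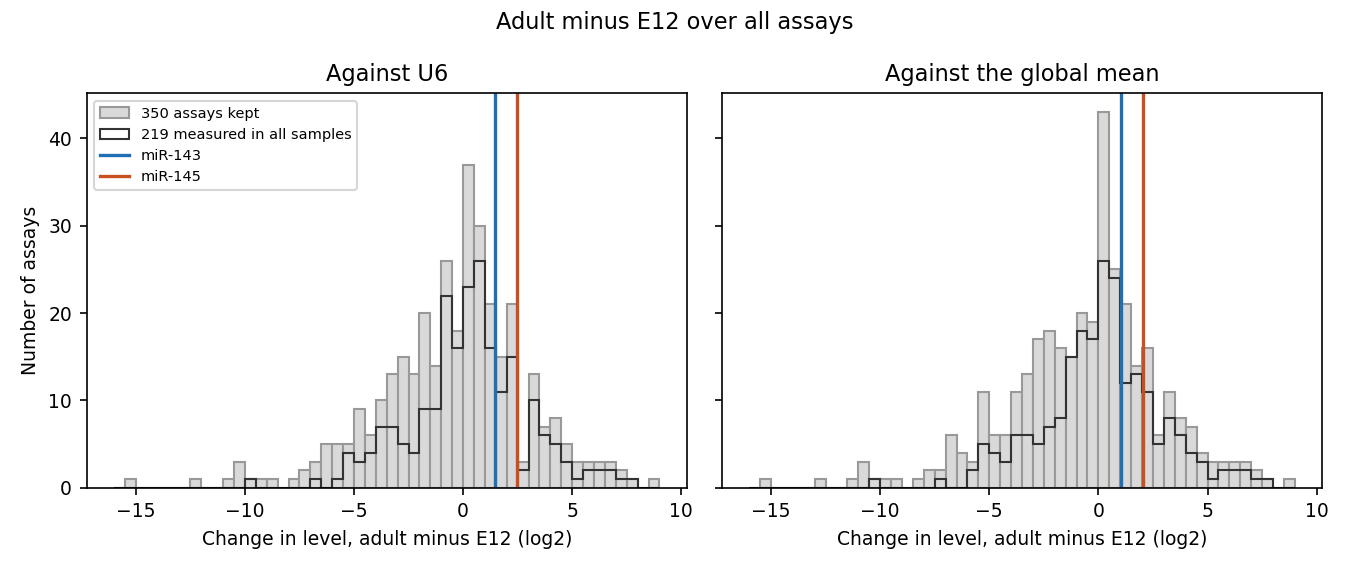
Number of assays (vertical axis) by their adult minus E12 change in level on the log2 scale (horizontal axis), against U6 (left) and against the global mean (right). Grey bars are the 350 assays kept, the outline the 219 measured in all samples, and the lines mark miR-143 (blue; 1.44 and 1.01) and miR-145 (orange; 2.47 and 2.04).

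The profiles of the members resembled each other over the 7 time-point means, with Pearson r = 0.870 against U6 and 0.788 against the global mean. Assays of a card share the U6 reading of a sample, and the median r of the 218 other completely measured assays was 0.51 with miR-143 and 0.53 with miR-145. miR-145 was only the 13th most like miR-143, and miR-143 the 38th most like miR-145. Against the global mean these places were 7 and 41, around a median r of 0.17 and 0.23. Over the 14 samples r was 0.752 (Spearman's rho 0.710) against U6 and 0.554 (rho 0.516) against the global mean. These are descriptions with no test.

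The assay most like miR-143 against U6 was number 379 (r = 0.970 over 7 means), whose ΔCT averaged 13.1 at E12, 9.57 at E18, 11.7 at P2 and 9.64 in the adult. It kept r = 0.769 against the global mean, in place 11. The assay most like miR-145 was number 2577 (r = 0.977), with a mean ΔCT of 17.5 in E12, 15.2 in E18, 16.9 in P2, 14.8 in P10 and 15.0 in adult lungs, and it stayed in place 1 against the global mean (r = 0.963). Its level was low, as the highest deposited ΔCT was 19.85, and its P10 samples were apart at 14.1 and 15.5. Each first place is the highest of 218 r over only 7 means. For each member a second assay followed, at r = 0.938 for miR-143 and 0.969 for miR-145. Against the global mean the one had r = 0.558 with miR-143, in place 57, and the other r = 0.962 with miR-145, in place 2. No table pairs these numbers with miRNA names.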

How the data were processed

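Total RNA was extracted from pooled whole lungs with the mirVana kit, reverse transcribed with Megaplex primers and measured by quantitative PCR on TaqMan Rodent MicroRNA Array cards A and B. The values deposited by the authors are ΔCT against U6, on a log2-like scale of cycles. The methods treated CT values above a fixed limit as that limit, but 2888 of the 7224 deposited cells are blank. The 28 run files per the labels were used only for the card layout and the day a file was last saved. The miRNA names of the members come from the manufacturer's assay numbering.

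The sign of ΔCT was turned to give a level. Blank cells took the highest deposited ΔCT (19.85) in fits against U6 and the highest rescaled ΔCT in fits with another scaling. In 1 sample, 5 values below 0.001 were treated as blank. An assay was kept if both samples of 1 or more time points had a value, and the 350 kept were fitted with limma 3.58.1 (R 4.3.3), with 1 mean per time point and all 14 samples, moderated F and contrast tests, two-sided, and Benjamini-Hochberg adjustment over the 350 assays at 0.05. limma was used in place of the methods' analysis of variance per assay, which was run as an alternative. The difference of both members within a sample was tested by exact permutation (Python 3.11.15, numpy 2.4.6). Both procedures were tested on simulated data with continuous normal noise, for the permutation test with fewer samples than here. These simulations had no whole-cycle steps, so they cannot show how the tests behave on such readings. Alternatives changed the scaling, filter, blanks, variance model, replicate block and samples. Another took the day the card A file was last saved as a random block. Whether that is the day of the PCR run is not given. The named assays were the 2 members and the 2 assays most like each by Pearson r, of which 1 each is given by number. The members and lists were chosen with earlier results of these data known. CT depth is 1 well per sample and member, and precision is limited by having 2 samples at each age.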

Additional observations from a re-analysis of the deposited data

How the results depend on the processing

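Over 24 alternatives, the course and the adult minus E12 change of miR-145 were called in 24 of 24, with the change between 2.02 and 2.92. Changes below are on the log2 scale, and causes were not tested. With the global mean, adult minus E18 was 0.89 for miR-143 and 1.44 for miR-145 (called), E18 minus E16 was -0.22 for miR-143, E18 minus E12 was 0.60 for miR-145 (not called) and adult minus P10 was 0.10 for miR-145. An alternative chosen after seeing the data, the global mean with only the 219 complete assays, gave these same values and called miR-145 at P10 minus P2 (1.34, adjusted p = 0.0176). With the median of complete assays, miR-143 changed by 1.00 for adult minus E12 (not called), -0.0164 for E18 minus E12, 1.02 for adult minus E18, -0.0042 for E16 minus E14, -0.0218 for E18 minus E16 and 0.12 for P2 minus E18. miR-145 then changed by 0.46 for E18 minus E12 (not called), 1.57 for adult minus E18 (called), -0.0031 for E14 minus E12, 0.14 for P2 minus E18, 1.41 for P10 minus P2 (called) and 0.0239 for adult minus P10.

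At an unmoved 1.44, adult minus E12 of miR-143 was not called with no filter (limma adjusted p = 0.0584), ordinary analysis of variance over all assays (adjusted p = 0.0611) or the replicate block (adjusted p = 0.0525). At 1.499, its E18 minus E12 change was called with only complete assays (limma adjusted p = 0.0124), blanks as missing (0.0390) or a variance trend (0.0463). With the last-saved day of the card A file as a random block it was 1.64 (limma adjusted p = 0.0493). With only complete assays its range of 1.499 was called (adjusted p = 0.0439). The P10 minus P2 change of miR-145, 1.67, was called with only complete assays and with blanks as missing.

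Leaving out 1 sample at a time gave, for miR-143, 0.92 to 1.96 for adult minus E12, 0.98 to 2.02 for E18 minus E12, -0.58 to 0.46 for adult minus E18, -0.0524 to 0.86 for E14 minus E12, -1.67 to -0.62 for P2 minus E18, 0.19 to 1.11 for P10 minus P2 and -0.0815 to 0.96 for adult minus P10. For miR-145 it gave 1.46 to 2.49 for E18 minus E12, -0.0215 to 1.01 for adult minus E18, -0.0546 to 0.84 for E14 minus E12, -1.64 to -0.60 for P2 minus E18 and 1.21 to 2.13 for P10 minus P2. A lone sample was assumed to vary like the other time points.

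Across assays, the deviations of same-numbered replicates had r from -0.42 to 0.24 over 21 pairs of time points. Such r do not respond to a shift common to all assays of a sample, so they cannot settle whether the numbers pair samples. The replicate block changed no other call, and for the within-sample difference it gave an exact permutation p = 0.108 over 5040 arrangements.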
